A study of Drosophila melanogaster with 6 samples.

Results

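Mitochondrially encoded transcripts are the RNAs read from the small circular genome that mitochondria carry. They were taken as every row of the expression table whose symbol begins with mt:, which gave 19 of 14138 rows, made up of 13 protein genes, 2 rRNA genes and 4 tRNA genes. The rule used the symbol alone and no measured value. The annotation of the mitochondrial genome holds 22 tRNA genes, and the other 18 had no row in the expression table. The cells were olfactory projection neurons of Drosophila melanogaster, the neurons that carry odour information out of the antennal lobe. They were sorted by fluorescence for a GFP marker, at about 2000 cells per library, and RNA was converted to cDNA with SMART-seq2, a full-length method for small inputs that primes on poly(A) tails. The adult group has 3 libraries from flies aged 5 days, and the development group has 3 libraries collected 36 h after puparium formation. All flies were untreated, and the labels name no driver line, other allele or sex. Levels are given as CPM, which scales each library so that all rows sum to 1000000.

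Mitochondrial DNA of the fly encodes subunits of 4 of the 5 complexes of oxidative phosphorylation, together with the rRNAs and tRNAs that mitochondria use to translate them. All other subunits, including the whole of complex II, come from nuclear genes and are imported. Genes lie on both strands of the circle, long transcripts are cut into separate RNAs largely at the tRNAs, and the mature mRNAs carry short poly(A) tails. A few neighbours stay joined in a shared mRNA: ATPase8 with ATPase6, ND4L with ND4, and ND6 with Cyt-b. Neurons rely on these complexes for much of the ATP that supports ion pumping and synaptic transmission.

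Library depth, recovered from the CPM steps, was 42217764, 32764616 and 40668115 reads in adult replicates 1, 2 and 3, and 31139403, 34542641 and 18602612 reads in development replicates 1, 2 and 3. No replicate pair was as alike as repeat counts of the same library would be (chi-square over its degrees of freedom, 50.1 to 75.7 for adult pairs). Development replicate 1 stood apart from its group, at 96.3 and 76.7 from replicates 2 and 3, which were 20.6 from each other. Without it 5 of the 10 tested mitochondrially encoded genes were higher in adult and 0 lower (limma), against 6 and 0 with it, as mt:ND1 lost its call, and the other 5 had log2 fold changes of 0.32 to 0.99. Whether the replicates are separate animals, dissections or sorts is not in the labels. The p-values therefore refer to library-to-library spread, part of which may be technical. The sorted identity was checked on marker lists. All 10 projection neuron genes were detected, with summed levels of 4069 to 4493 CPM in adult and 2735 to 4156 CPM in development. The most abundant was nSyb, at 2218 CPM in adult and 1299 CPM in development. That gene is not particular to projection neurons, so the sum alone does not identify them. Of 9 tested 3 were higher and 4 lower in adult (limma), beside 27.2% and 37.9% of all tested genes. Higher were nSyb, a synaptic vesicle gene, and the acetylcholine genes VAChT and ChAT, the last at 569.2 ± 15.41 CPM in adult and 43.8 ± 8.63 CPM in development. The tested transcription factor genes went the other way or did not pass, among them acj6, at 146.4 ± 6.10 CPM in adult and 169.2 ± 10.2 CPM in development, and Oaz, at 296.5 ± 11.8 CPM in adult and 463.4 ± 31.4 CPM in development (SD, n = 3 each). Lim1 was too low to test, at 6.51 CPM in adult and 3.59 CPM in development. All 8 muscle markers, from a tissue rich in mitochondria, stayed below 5 CPM in every library, with summed levels of 2.47 to 7.57 CPM in adult and 8.31 to 9.46 CPM in development. The 8 glial markers summed to 492 to 635.3 CPM in adult and 302.9 to 342.9 CPM in development. The glial factor gene repo averaged 1.08 CPM in adult and 0.851 CPM in development. Of the glial list 6 were tested, 3 were higher and 2 lower in adult, beside 27.2% and 37.9% of all tested genes. The higher ones were Gs2, at 333.5 CPM in adult and 50.9 CPM in development, alrm, at 26.3 and 8.40 CPM, and Tret1-1, at 17.1 and 1.66 CPM. The lower ones were nrv2, at 194.6 CPM in adult and 243.3 CPM in development, and wrapper, at 3.37 and 7.07 CPM. The 5 hemocyte markers summed to 225 to 250.2 CPM in adult and 356.2 to 491.5 CPM in development, nearly all of it Pxn, while 4 of the 5 stayed below 5 CPM in every library. The 7 photoreceptor markers summed to 951.9 to 971.3 CPM in adult and 272.9 to 290.2 CPM in development, nearly all norpA. Of 3 tested all 3 were higher in adult, namely norpA, Arr1 and Arr2. Arr2 averaged 28.4 CPM in adult and 0.207 CPM in development, and the rhodopsin gene ninaE 2.07 CPM in adult and 0.0538 CPM in development. Olfactory receptor neuron markers summed to 23.5 to 37.4 CPM in adult and 1.71 to 4.95 CPM in development, nearly all Orco. Kenyon cell markers, at 953.9 to 1099 CPM in adult and 867.1 to 1301 CPM in development, and fat body markers, at 48.4 to 61.0 CPM in adult and 60.4 to 81.5 CPM in development, overlapped between groups in their sums. The fat body members did not move together: of 5 tested the yolk protein genes Yp1 and Yp2 were higher in adult, at 18.4 and 19.3 CPM in adult and 0.252 and 0.211 CPM in development, while Fbp1 and Lsp2 were lower, at 2.05 and 0.0203 CPM in adult and 25.5 and 16.8 CPM in development. The same shares of all tested genes, 27.2% higher and 37.9% lower, stand beside the photoreceptor and fat body counts. No marker was at 0 in every library. The part that glial RNA or other cells had in the mitochondrial values was not tested. In RNA pooled from many cells, fewer cells of a type and less RNA per cell cannot be told apart.

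The level of mitochondrially encoded RNA was higher in adult projection neurons. The 19 rows summed to 7427, 9822 and 9606 CPM in adult replicates 1, 2 and 3, against 5740, 6637 and 5009 CPM in development replicates 1, 2 and 3. The lowest adult library lay above the highest development library. As a share of all CPM this was 0.895% ± 0.132 in adult and 0.579% ± 0.0815 in development (SD, n = 3 each), a ratio of means of 1.54. Protein genes accounted for 0.894% ± 0.132 of CPM in adult and 0.578% ± 0.0813 in development, so nearly all of the signal was mRNA. The summed level of the 2 rRNA genes went the other way, at 0.00123% ± 0.0000799 of CPM in adult and 0.00168% ± 0.00026 in development, with the groups not overlapping. Most of that sum was mt:lrRNA, which was not called when tested alone (limma, adjusted p = 0.111). The groups overlapped for mt:srRNA. No p is given for these sums, since they pool chosen genes.

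Levels as counted differed between the genes by orders of magnitude. The sources used here do not say how shared reads were treated. The part of read counting, or of priming on poly(A) tails, in differences between genes was not tested. The 5 most abundant, namely mt:CoI, mt:CoII, mt:CoIII, mt:ATPase6 and mt:Cyt-b, held 99.35%, 99.32% and 99.30% of mitochondrially encoded CPM in adult replicates 1, 2 and 3 and 99.09%, 99.16% and 99.13% in development replicates 1, 2 and 3. The 7 ND genes, which encode subunits of NADH dehydrogenase, complex I, summed to 36.4 ± 8.71 CPM in adult and 24.3 ± 4.02 CPM in development (SD, n = 3 each). That was 0.402% ± 0.0412 of mitochondrially encoded CPM in adult and 0.419% ± 0.0327 in development, with overlapping groups.

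**Figure D1:**
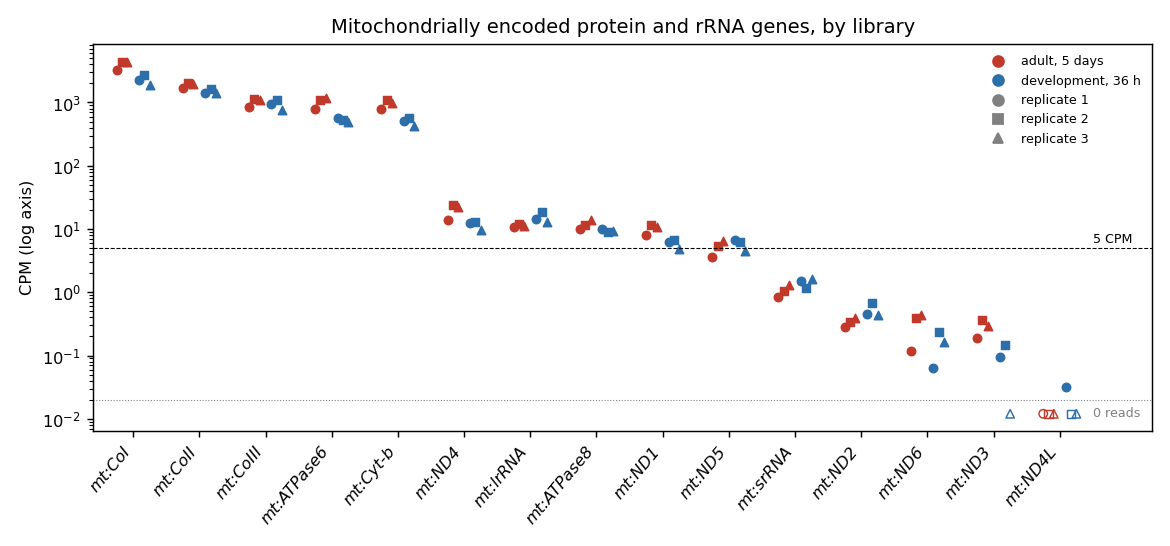
CPM on a log axis of the 15 mitochondrially encoded protein and rRNA genes, 1 point per library, with adult left of development for each gene and open symbols for libraries with 0 reads. The 5 most abundant genes stand between 427.6 and 4428 CPM, while mt:ND2, mt:ND3, mt:ND4L and mt:ND6 stay below 1 CPM in every library. The dashed line marks 5 CPM, the level a gene had to reach in at least 3 libraries to be tested.

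The test was run on log2(CPM + 1) with limma for the 6814 genes that reached 5 CPM in 3 or more of the 6 libraries, and a gene was called at an adjusted p under 0.05 over all genes tested. Of the 19 mitochondrially encoded rows 10 passed this filter. They were 9 protein genes and the large rRNA. The remaining 9, namely mt:ND2, mt:ND3, mt:ND4L, mt:ND6, the small rRNA and the 4 tRNAs, were too low to test. Among the 10 tested, 6 were higher in adult, where 27.2% of all tested genes were, and 0 were lower, where 37.9% of all tested genes were. These shares depend on scaling, with 1856 genes higher and 2583 lower here, 2261 and 2142 under trimmed mean of M values scaling, and 2231 and 2180 under median of ratios scaling, while the members gave 6 and 0 in each. At an unadjusted p under 0.05 the numbers were the same 6 higher and 0 lower, and limma voom on recovered reads called 5 higher and 0 lower. The median log2 fold change, adult minus development, was 0.51 for the 10 rows and -0.15 for all tested genes. Libraries of the groups did not overlap for 7 of the 10 with adult above, against 28.8% of all tested genes, and for 1 of the 10 with adult below, against 40.2% of all tested genes.

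The 3 subunits of cytochrome c oxidase, complex IV, were the most abundant as a class but did not move alike. mt:CoI (FBgn0013674, mitochondrion_genome:1474-3009 in BDGP6.54, plus strand) encodes the catalytic subunit that holds the haem groups where oxygen is reduced. It stood at 3291, 4428 and 4337 CPM in adult replicates 1, 2 and 3, against 2276, 2764 and 1909 CPM in development replicates 1, 2 and 3. Every adult library was above every development library, and the log2 fold change was 0.80 (limma, SE 0.137, adjusted p = 0.000177). mt:CoII (FBgn0013675, mitochondrion_genome:3083-3767, plus strand) encodes the subunit that takes electrons from cytochrome c. It had 1675, 1997 and 1942 CPM in adult replicates 1, 2 and 3, against 1395, 1616 and 1390 CPM in development replicates 1, 2 and 3. Its groups did not overlap either, but the rise was smaller, with a log2 fold change of 0.35 (limma, SE 0.098, adjusted p = 0.00637). mt:CoIII (FBgn0013676, mitochondrion_genome:4736-5524, plus strand), the third core subunit, had 843.4, 1128 and 1112 CPM in adult replicates 1, 2 and 3, against 942.2, 1107 and 752.5 CPM in development replicates 1, 2 and 3. These ranges overlap, and mt:CoIII missed the threshold (log2 fold change 0.14, 95% interval -0.16 to 0.45; limma, adjusted p = 0.388).

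mt:Cyt-b (FBgn0013678, mitochondrion_genome:10499-11635, plus strand) encodes cytochrome b, the only mitochondrially encoded subunit of complex III. It had 775.5, 1088 and 977 CPM in adult replicates 1, 2 and 3, against 513.1, 564.6 and 427.6 CPM in development replicates 1, 2 and 3. The groups were well apart, and the log2 fold change was 0.91 (limma, SE 0.132, adjusted p = 3.76e-05). mt:ATPase6 (FBgn0013672, mitochondrion_genome:4062-4736, plus strand) encodes subunit a of ATP synthase, which forms part of the proton path of complex V. It had 794.7, 1113 and 1170 CPM in adult replicates 1, 2 and 3, against 561.9, 529.2 and 486.5 CPM in development replicates 1, 2 and 3. Of the 10 tested rows it had the largest log2 fold change, 0.95 (limma, SE 0.131, adjusted p = 2.54e-05), a 1.93-fold higher level in adult.

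mt:ATPase8 (FBgn0013673, mitochondrion_genome:3907-4068, plus strand) encodes a short membrane subunit of the same complex and shares 7 bases with mt:ATPase6. It had 10.16, 11.63 and 14.11 CPM in adult replicates 1, 2 and 3, against 10.02, 8.945 and 9.192 CPM in development replicates 1, 2 and 3. The lowest adult value barely exceeded the highest development value, and the gene missed the threshold (log2 fold change 0.31, 95% interval -0.17 to 0.79; limma, adjusted p = 0.235). The sources used here do not say how reads over both genes were counted, so the level of so short a gene is uncertain.

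Of the complex I genes 3 were high enough to test. mt:ND4 (FBgn0262952, mitochondrion_genome:8207-9545, minus strand), a proton-pumping membrane subunit, had 14.1, 24.3 and 22.2 CPM in adult replicates 1, 2 and 3, against 12.5, 13.1 and 9.73 CPM in development replicates 1, 2 and 3. Adult replicate 1 stood only just above development replicate 2, and the log2 fold change was 0.70 (limma, SE 0.238, adjusted p = 0.0188). That call ended without adult replicate 2, without adult replicate 3 and without development replicate 3 (limma, adjusted p = 0.0814, 0.0601 and 0.0789). mt:ND1 (FBgn0013679, mitochondrion_genome:11721-12659, minus strand), the membrane subunit next to the quinone site, had 8.08, 11.5 and 10.6 CPM in adult replicates 1, 2 and 3, against 6.26, 6.75 and 4.78 CPM in development replicates 1, 2 and 3. All adult libraries were above all development libraries, with a log2 fold change of 0.67 (limma, SE 0.252, adjusted p = 0.0312). The call rested on a narrow margin: it ended without adult replicate 2 or 3 and without development replicate 1 or 3 (limma, adjusted p = 0.0997, 0.064, 0.0512 and 0.117), and with limma voom (adjusted p = 0.0629). mt:ND5 (FBgn0013684, mitochondrion_genome:6409-8125, minus strand), another proton-pumping subunit, had 3.624, 5.402 and 6.541 CPM in adult replicates 1, 2 and 3, against 6.712, 6.137 and 4.569 CPM in development replicates 1, 2 and 3. Its groups overlapped, and it missed the threshold (log2 fold change -0.15, 95% interval -0.77 to 0.47; limma, adjusted p = 0.658).

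**Figure D2:**
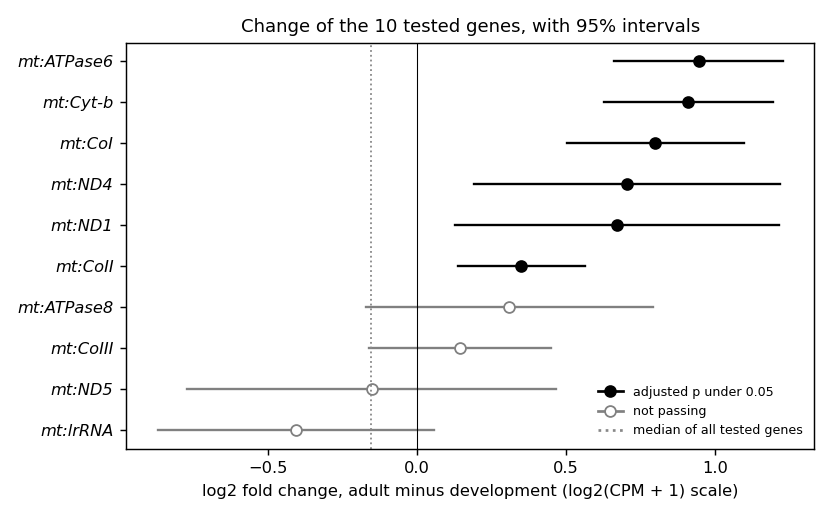
Log2 fold change, on the log2(CPM + 1) scale, adult minus development, of the 10 tested mitochondrially encoded genes, with 95% intervals from limma. Filled points are the 6 genes called at an adjusted p under 0.05, all to the right of 0, and the dotted line is the median of all tested genes, -0.15.

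The ribosomal RNAs are the structural core of the mitochondrial ribosome. mt:lrRNA (FBgn0013686, mitochondrion_genome:12735-14058, minus strand), the large rRNA, had 10.61, 12.03 and 10.99 CPM in adult replicates 1, 2 and 3, against 14.58, 18.44 and 12.96 CPM in development replicates 1, 2 and 3. Every adult library was below every development library, but the difference missed the threshold (log2 fold change -0.41, 95% interval -0.87 to 0.06; limma, adjusted p = 0.111). It passed without a variance trend (adjusted p = 0.0442) and with array weights (limma, adjusted p = 0.0456). It was smaller under trimmed mean of M values scaling (-0.25), under median of ratios scaling (-0.27) and without development replicate 2 (-0.27), where the limma adjusted p was 0.328, 0.292 and 0.374. mt:srRNA (FBgn0013688, mitochondrion_genome:14131-14916, minus strand), the small rRNA, rested on 123 reads over the adult libraries and 118 over the development libraries. Its level was 0.8527, 1.038 and 1.303 CPM in adult replicates 1, 2 and 3, against 1.509, 1.187 and 1.613 CPM in development replicates 1, 2 and 3. Those groups overlap. The pooled ratio of adult over development was 0.76 (95% exact binomial interval 0.585 to 0.986), an interval that covers counting error only and not the spread between libraries.

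The remaining ND genes were near the floor of detection. mt:ND2 (mitochondrion_genome:240-1263, plus strand) had 0.284, 0.336 and 0.393 CPM in adult replicates 1, 2 and 3, against 0.45, 0.666 and 0.43 CPM in development replicates 1, 2 and 3. The adult libraries were the lower ones without overlap, and the gene rested on 39 reads in adult and 45 in development, a pooled ratio of 0.632 (95% exact binomial interval 0.401 to 0.992). mt:ND3 (mitochondrion_genome:5608-5961, plus strand) had 32 reads in adult and 8 in development, a pooled ratio of 2.92 (95% exact binomial interval 1.32 to 7.32). mt:ND6 (mitochondrion_genome:9971-10495, plus strand) had 36 reads in adult and 13 in development, a pooled ratio of 2.02 (95% exact binomial interval 1.04 to 4.15). Both intervals lie above 1 on counting error, but the libraries of the groups overlapped for mt:ND6. mt:ND4L (mitochondrion_genome:9545-9835, minus strand) had 0 reads in adult, which allows up to 0.0259 CPM, and 1 read in development, in replicate 1. All 4 of these genes encode membrane subunits of complex I.

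The tRNA rows were at the limit of what the libraries could show. mt:tRNA:C had 3 reads in adult and 0 in development, mt:tRNA:K likewise 3 and 0, mt:tRNA:V 1 in adult and 0 in development, and mt:tRNA:G 1 in each group. A count of 0 allows up to 0.0356 CPM over the development libraries, so no difference was detectable at this depth. The 3 reads of mt:tRNA:C came 1 from each adult library.

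Per length, the order of counted levels followed neither strand nor position alone. The part of read counting and poly(A) priming in that order was not tested. Dividing CPM by annotated gene length put mt:CoII first, at 2732 ± 251.8 CPM per kilobase in adult and 2142 ± 188.8 in development, and mt:CoI next, at 2616 ± 411.3 CPM per kilobase in adult and 1508 ± 279.1 in development (SD, n = 3 each). In adult these 2 means lay within their spread of each other. Within each adult library mt:CoII was the higher, narrowly so in replicates 2 and 3. It had 2445, 2915 and 2835 CPM per kilobase in adult replicates 1, 2 and 3, against 2143, 2883 and 2824 for mt:CoI. mt:ATPase6 and mt:CoIII, which abut on the genome, changed places: per kilobase mt:ATPase6 had 1520 ± 300 CPM in adult and 779.1 ± 56.0 in development, and mt:CoIII had 1303 ± 202.8 CPM in adult and 1184 ± 225.1 in development. mt:Cyt-b came next in both groups, at 832.8 ± 139.5 CPM per kilobase in adult and 441.3 ± 60.9 in development. All 5 of these genes lie on the plus strand, which held 99.47% ± 0.0262 of mitochondrially encoded CPM in adult and 99.31% ± 0.0274 in development. Strand did not mark them off, however, since mt:ND2, mt:ND3 and mt:ND6 are also on the plus strand and had 0.33, 0.801 and 0.608 CPM per kilobase in adult and 0.503, 0.227 and 0.29 in development. On the minus strand the highest in adult was mt:ND4, at 15.1 CPM per kilobase in adult and 8.81 in development, and the highest in development was mt:lrRNA, at 8.47 CPM per kilobase in adult and 11.6 in development.

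Neighbours known to share an mRNA did not have like counted levels. How reads were assigned between such partners is not given, and its part in these ratios was not tested. Per kilobase mt:ATPase6 was 18.8, 23.0 and 19.9 times mt:ATPase8 in adult replicates 1, 2 and 3, against 13.5, 14.2 and 12.7 times in development replicates 1, 2 and 3. Per kilobase mt:Cyt-b was 3023, 1267 and 1019 times mt:ND6 in adult replicates 1, 2 and 3, against 3689, 1126 and 1224 times in development replicates 1, 2 and 3, where mt:ND6 rests on few reads. mt:ND4L, the partner of mt:ND4, had 1 read in all 6 libraries, while mt:ND4 had 2294 reads in adult and 1024 in development. The annotated partners are of unequal length, with 675 and 162 bases for mt:ATPase6 and mt:ATPase8, 1137 and 525 for mt:Cyt-b and mt:ND6, and 1339 and 291 for mt:ND4 and mt:ND4L.

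**Figure D3:**
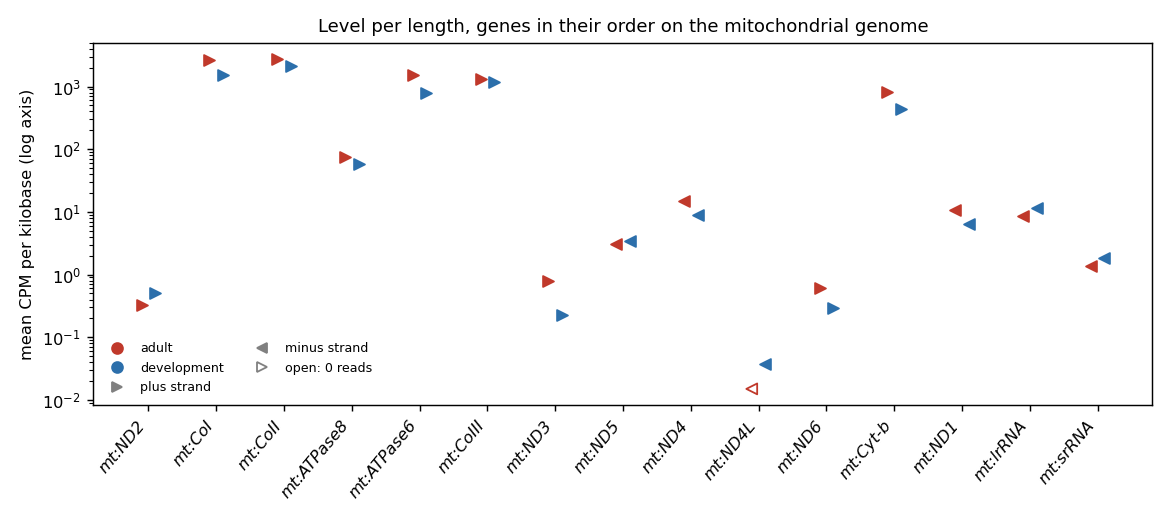
Mean CPM per kilobase of annotated length, on a log axis, of the 15 protein and rRNA genes in their order on the mitochondrial genome, with arrowheads pointing by strand and adult left of development. The run from mt:CoI to mt:CoIII, with mt:Cyt-b, stands above the rest, with mt:ATPase8 inside that run lower at 73.9 CPM per kilobase in adult and 57.9 in development, and mt:ND2, mt:ND3 and mt:ND6 lie below 1 on the same strand.

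The make-up of mitochondrially encoded RNA is given first as shares, which carry no test, and the tests of balance follow. mt:CoI held 44.8% ± 0.467 of it in adult and 39.8% ± 1.77 in development, mt:ATPase6 held 11.4% ± 0.745 in adult and 9.16% ± 1.03 in development, and mt:Cyt-b held 10.6% ± 0.467 in adult and 8.66% ± 0.241 in development (SD, n = 3 each). Shares of these 3 were higher in adult with no overlap between groups. mt:CoII held 21.0% ± 1.31 in adult and 25.5% ± 1.97 in development, and mt:CoIII held 11.5% ± 0.111 in adult and 16.0% ± 0.892 in development, both lower in adult with no overlap. mt:ND5 held 0.0573% ± 0.00985 in adult and 0.1% ± 0.0145 in development, and mt:lrRNA held 0.127% ± 0.0147 in adult and 0.264% ± 0.0126 in development, again without overlap. Shares of a total are not independent of each other, so a higher share of mt:CoI lowers the others.

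Ratios between members do not depend on the scaling of the libraries, and 10 were computed. The ratio of mt:CoIII to mt:CoI was 0.256, 0.255 and 0.256 in adult replicates 1, 2 and 3, against 0.414, 0.401 and 0.394 in development replicates 1, 2 and 3. It was steady within each group, including the libraries whose overall level was low, and lower in adult by 0.65 on the log2 scale. The ratio of mt:ATPase6 to its neighbour mt:CoIII was 0.942, 0.987 and 1.05 in adult replicates 1, 2 and 3, against 0.596, 0.478 and 0.646 in development replicates 1, 2 and 3, a log2 difference of 0.80. The ratio of mt:ND5 to mt:ND4 was 0.258, 0.222 and 0.294 in adult replicates 1, 2 and 3, against 0.536, 0.468 and 0.47 in development replicates 1, 2 and 3. The ratio of mt:lrRNA to mt:CoI averaged 0.00283 ± 0.000358 in adult and 0.00662 ± 0.000194 in development (SD, n = 3 each), a log2 difference of -1.24, the largest of the 10. Ratios of mt:CoII to mt:CoI, mt:ATPase8 to mt:ATPase6, and mt:ND1 and mt:ND4 to mt:Cyt-b were lower in adult without overlap too, with log2 differences of -0.45, -0.61, -0.15 and -0.16. For mt:ND4 to mt:Cyt-b the groups all but touched, at 0.0181, 0.0223 and 0.02275 in adult replicates 1, 2 and 3, against 0.0244, 0.0232 and 0.02276 in development replicates 1, 2 and 3, and adult replicate 1 was the one far below. Those 8 ratios had p = 0.1 each in an exact two-sided permutation test, the smallest that 3 against 3 libraries can give (0.125 after Benjamini-Hochberg adjustment over the 10). The other 2, mt:Cyt-b to mt:CoI and mt:ATPase6 to mt:CoI, overlapped between groups, at 0.236 ± 0.0103 and 0.254 ± 0.0144 in adult and 0.218 ± 0.0118 and 0.231 ± 0.0345 in development (exact permutation p = 0.2 and 0.5).

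Fitted relative to the mean log2 level of the 9 tested mitochondrial mRNAs, mt:lrRNA was lower in adult by a log2 difference of -0.93 (limma, SE 0.319, adjusted p = 0.00668), and no other mitochondrially encoded gene was called. Those 9 mRNAs define the centre, so the fit describes balance among them. In it 53.9% of all tested genes were lower and 12.0% higher in adult, and their median log2 difference was -0.67. mt:CoIII stood at -0.38, with a 95% interval of -0.81 to 0.06 (limma, adjusted p = 0.12), and mt:ATPase6 at 0.43, with an interval of -0.01 to 0.86 (limma, adjusted p = 0.0789). The balance among the mRNAs depended on the centre. With their median as the centre mt:CoII, mt:CoIII and mt:ND5 were called lower as well, at -0.59, -0.80 and -1.09 (limma, adjusted p = 0.00866, 0.000381 and 0.00527). With the summed CPM as the centre mt:CoIII was called too (log2 difference -0.48; limma, adjusted p = 0.0363), and without adult replicate 1 mt:ATPase6 was called (0.45; limma, adjusted p = 0.0289). The median log2 difference of all tested genes was -1.09 with the median as the centre and -0.78 with the summed CPM.

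**Figure D4:**
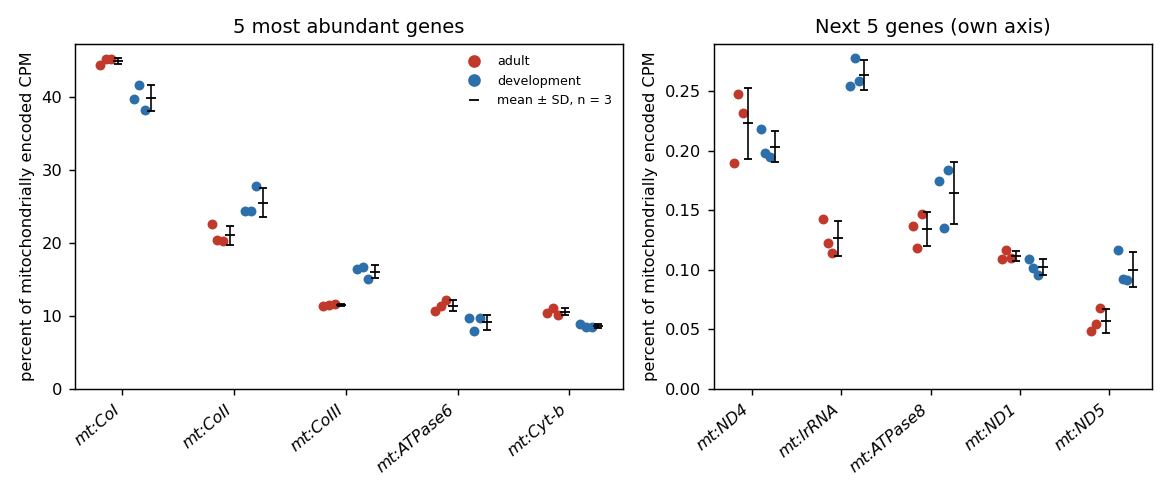
Share of mitochondrially encoded CPM held by the 5 most abundant genes (left) and the next 5 (right, own axis), 1 point per library with mean ± SD of 3 libraries, adult left of development. mt:CoI takes 44.8% in adult and 39.8% in development, while mt:CoIII takes 11.5% in adult and 16.0% in development.

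Much of the spread within each group was common to the members. Adult replicate 1 was the lowest adult library for all 9 tested protein genes, by a median of -0.27 on the log2 scale from the adult mean, and development replicate 3 was the lowest of its group for 8 of 9, by a median of -0.24. The median deviation over all tested genes was -0.01 in adult replicate 1 and 0.02 in development replicate 3. Adult replicate 1 was the deepest library and development replicate 3 the shallowest, and the part of depth in these deviations was not tested. Without adult replicate 1 the shares of CPM differed by 0.392 percentage points between adult and development, and without development replicate 3 by 0.276, against 0.316 with all libraries.

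Nuclear genes of the same complexes give the setting for these changes. Of 65 tested nuclear genes of complexes I to V, 48 were higher and 2 lower in adult (limma), beside 27.2% and 37.9% of all tested genes, with a median log2 fold change of 0.59. Without development replicate 1 the counts were 47 and 5, and without the other libraries in turn 45 to 49 and 0 to 2. Under trimmed mean of M values scaling and under median of ratios scaling the counts were 55 and 0. Their summed share of CPM was 5.70% ± 0.147 in adult and 4.07% ± 0.26 in development (SD, n = 3 each). Mitochondrial mRNA over nuclear subunit mRNA, as a ratio of summed CPM, was 0.127, 0.177 and 0.168 in adult replicates 1, 2 and 3, against 0.152, 0.159 and 0.117 in development replicates 1, 2 and 3. These ratios overlap, so a difference in the balance between the genomes was not detectable with these libraries. The nuclear lists were drawn up with earlier results of these data known.

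By complex, the nuclear subunits of complex II, which has no mitochondrially encoded member, had the largest median log2 fold change, 1.65, with 4 of 4 higher in adult. Beside this count and those of the other complexes stand 27.2% higher and 37.9% lower of all tested genes in the same fit. SdhB, the iron-sulfur subunit, was at 562.7 ± 64.7 CPM in adult and 161.4 ± 17.7 CPM in development (SD, n = 3 each), and SdhA and SdhD had log2 fold changes of 1.74 and 1.56. In complex III 7 of 8 were higher, with a median of 0.97, close to 0.91 for mt:Cyt-b. UQCR-C1, a core subunit, was at 1961 ± 112.3 CPM in adult and 798 ± 14.1 CPM in development, with UQCR-6.4 and UQCR-C2 next by log2 fold change, at 1.28 and 1.04. In complex I 26 of 32 were higher and 2 lower, with a median of 0.63, beside 0.70 for mt:ND4, 0.67 for mt:ND1 and -0.15 for mt:ND5. ND-75, the large iron-sulfur subunit of the matrix arm, had the highest log2 fold change of them, 1.81, at 724.8 ± 34.9 CPM in adult and 214 ± 78.8 CPM in development, and ND-51, a flavin-binding subunit, and ND-49 followed at 1.49 and 1.42. ND-B18 and ND-B16.6 were lower in adult, at -0.35 and -0.29, with ND-B18 at 233.7 ± 24.4 CPM in adult and 297.1 ± 32.0 CPM in development. These 2 calls depended on the setting. Under trimmed mean of M values and median of ratios scaling 28 complex I genes were higher and 0 lower. Without adult replicate 2 or development replicate 3 the number lower was 0 too. In complex IV 6 of 9 were higher, with a median of 0.43, beside 0.80, 0.35 and 0.14 for mt:CoI, mt:CoII and mt:CoIII. COX6B was at 656.4 ± 27.0 CPM in adult and 394.5 ± 39.9 CPM in development, with COX5A and COX4 next by log2 fold change, at 0.67 and 0.63. In complex V 5 of 12 were higher, and 8 of 12 under either other scaling, with a median of 0.17. The highest values were 0.49, 0.48 and 0.44 for ATPsynB, blw and ATPsynE, beside 0.95 for mt:ATPase6 and 0.31 for mt:ATPase8. The 95% interval of mt:ATPase6, 0.66 to 1.23, lay above the fitted value of every tested nuclear subunit of complex V. The value of mt:ATPase8, with an interval of -0.17 to 0.79, lay within the nuclear range of -0.14 to 0.49. The difference for mt:ATPase6 was not itself tested.

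**Figure D5:**
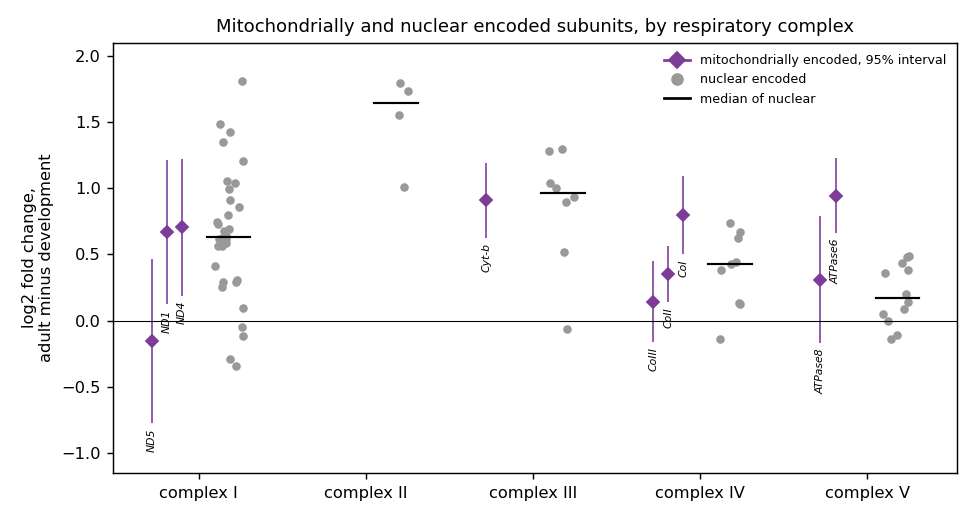
Log2 fold change, adult minus development, of mitochondrially encoded subunits (diamonds with 95% intervals, named) and of tested nuclear subunits (grey points, with their median as a line) for each respiratory complex. mt:Cyt-b at 0.91 sits by the nuclear median of complex III, 0.97. In complex V mt:ATPase6 at 0.95 sits above every tested nuclear subunit, while mt:ATPase8 at 0.31 sits within their range.

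Among 6 tested nuclear genes of mitochondrial transcription, 1 was higher and 3 lower in adult (limma), beside 27.2% higher and 37.9% lower of all tested genes. mtRNApol, the mitochondrial RNA polymerase gene, was at 71.0 ± 18.2 CPM in adult and 41.0 ± 23.5 CPM in development (log2 fold change 0.88 ± 0.294, SE; limma, adjusted p = 0.0173). Its groups overlapped, since development replicate 1 had 68.1 CPM against 28.5 and 26.5 CPM in development replicates 2 and 3, and adult replicates 1, 2 and 3 had 55.1, 90.9 and 67.0 CPM. The call was lost without adult replicate 2 and without development replicate 2 or 3 (limma, adjusted p = 0.0727, 0.072 and 0.0864). mtTFB2, an initiation factor gene, was lower, at 38.2 ± 6.46 CPM in adult and 63.5 ± 10.3 CPM in development, and the termination factor gene mTTF and its relative mTerf5 were lower too and had log2 fold changes of -0.84 and -0.82 (limma, SE 0.215 and 0.243, adjusted p = 0.00368 and 0.00918). TFAM, which packages and activates mitochondrial DNA, did not pass (64.0 ± 10.4 CPM in adult and 74.1 ± 4.71 CPM in development; limma, adjusted p = 0.209). Among 4 tested replication genes, of which 3 were called higher under either other scaling, EndoG alone was called here, higher in adult, with overlapping groups and a call that was lost without any of 4 libraries (limma, adjusted p = 0.0983 to 0.124), and the DNA-binding protein gene mtSSB was at 16.3 ± 1.81 CPM in adult and 18.6 ± 1.19 CPM in development (limma, adjusted p = 0.417).

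Among 9 tested genes of mitochondrial RNA processing and stability 3 were higher and 2 lower in adult (limma), beside 27.2% and 37.9% of all tested genes. Leaving out each library in turn gave 1 to 3 higher, with 1 without development replicate 3, and 2 lower. bsf, a relative of human LRPPRC that stabilises mitochondrial mRNAs in flies, had 174.1, 133.5 and 162.9 CPM in adult replicates 1, 2 and 3, against 84.8, 74.1 and 72.9 CPM in development replicates 1, 2 and 3. Its groups lay far apart, with a log2 fold change of 1.01 (limma, SE 0.132, adjusted p = 1.51e-05). Its relative Lrpprc2 was at 89.13 ± 4.203 CPM in adult and 56.55 ± 29.52 CPM in development (limma, adjusted p = 0.0163), with overlapping groups, since development replicate 1 had 90.5 CPM against 37.2 and 41.9 CPM in development replicates 2 and 3, and its call was lost without development replicate 2 or 3 (limma, adjusted p = 0.0832 and 0.0735). CG11418, the mitochondrial poly(A) polymerase gene MTPAP of RefSeq, rose by a log2 fold change of 0.48 (limma, SE 0.157, adjusted p = 0.0151). scu, which encodes a dehydrogenase that is also part of mitochondrial RNase P, was at 51.5 ± 7.95 CPM in adult and 129.9 ± 6.00 CPM in development, and clu, a regulator of mitochondrial position and function, was at 16.8 ± 3.61 CPM in adult and 33.8 ± 4.47 CPM in development.

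Of 72 tested mitochondrial ribosomal protein genes 27 were higher and 11 lower in adult (limma), beside 27.2% and 37.9% of all tested genes, with a median log2 fold change of 0.21, and their share of CPM was 0.574% ± 0.0225 in adult and 0.478% ± 0.0393 in development (SD, n = 3 each), while both rRNA genes had lower mean CPM in adult. Under trimmed mean of M values and median of ratios scaling 39 and 38 were higher and 4 and 5 lower. mRpS5, mRpL24 and mRpL55 had the largest log2 fold changes upward, 1.42, 1.14 and 1.10, and mRpL44, mRpL52 and mRpL49 the largest downward, -1.29, -0.84 and -0.59. mRpS5 was at 141.8 ± 5.61 CPM in adult and 52.5 ± 6.73 CPM in development, and mRpL44 was at 33.3 ± 2.17 CPM in adult and 83.1 ± 5.57 CPM in development. Of 15 tested mitochondrial tRNA ligase genes 7 were higher and 1 lower, again beside 27.2% and 37.9% of all tested genes. TrpRS-m was at 122.3 ± 3.01 CPM in adult and 39.6 ± 2.97 CPM in development, LeuRS-m at 123.8 ± 9.97 CPM in adult and 45.6 ± 1.70 CPM in development, ValRS-m at 22.6 ± 2.83 CPM in adult and 8.06 ± 0.891 CPM in development, and GluRS-m at 9.54 ± 0.349 CPM in adult and 22.8 ± 3.18 CPM in development.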

How the data were processed

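The deposited table holds log2 values, and the values show them to be log2(CPM + 1) by the authors: converted back, every library sums to 1000000. Per the submitters' processing notes STAR 2.4.2a and HTSeq 0.7.1 were used, roles not given. The sources used here do not give the genome build, the annotation, the strand setting or how shared reads were treated. Coordinates are those of BDGP6.54 (Ensembl), matched by symbol. Of 14139 rows, 1 without a symbol was left out. Each library's CPM values sit on steps worth 1 read, from which reads were recovered: 100.0% of values above 0 were whole within 0.1 read, with 18602612 to 42217764 reads per library. There are no molecular identifiers, and binomial intervals (exact, 95%) and floors (3 reads, over a group) cover counting error only.

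Genes with at least 5 CPM in at least 3 of 6 libraries were tested with limma 3.58.1 in R 4.3.3 (lmFit, eBayes with trend, two-sided, group only, Benjamini-Hochberg over all 6814 genes, threshold 0.05). Fold changes are on the log2(CPM + 1) scale, whose pseudocount of 1 understates changes of low genes. The adult against development fit was checked on simulated data (6754 genes tested, 200 of them altered). It recovered 100% of the alterations of 1 log2 unit and 100% of those of 2, and 3.85% of its calls were false. Only genes above a set mean CPM were altered, and mt:ATPase8, mt:ND1, mt:ND4, mt:ND5 and mt:lrRNA lay below it. Simulated counts had the same spread setting for every gene and no shift common to a library. In the data 65.1% of tested genes were called. These rates therefore do not carry over to the members. Alternatives covered pseudocount, filter, scaling, replicate block, variance model, library weights, voom and leaving out each library. All protein and rRNA members are named, and of nuclear lists up to 3 genes a direction with the largest changes past the threshold, plus a fixed panel. Members and lists were chosen with earlier results of these data known.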

Additional observations from a re-analysis of the deposited data

How the results depend on the processing

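Under 17 alternatives mt:ATPase6, mt:CoI and mt:Cyt-b kept their direction and their call, with adjusted p up to 0.00437, 0.0203 and 0.00515 (limma). The number of mitochondrially encoded genes higher in adult was 3 with no filter, against 6, as mt:CoII, mt:ND1 and mt:ND4 lost their calls (limma, adjusted p = 0.0645, 0.115 and 0.084). It was 4 to 6 when each library was left out in turn, while the number lower was 0 in all of those fits. It was 1 lower, mt:lrRNA, without a variance trend and 1 lower with array weights. All genes higher numbered 1711 to 1930 and lower 2332 to 2570 when each library was left out, against 1856 and 2583. Some members that were not called changed sign when a library was left out: mt:ND5 ranged from -0.309 without adult replicate 3 to 0.043 without adult replicate 1, and mt:CoIII from -0.003 without development replicate 3 to 0.280 without adult replicate 1. Trimmed mean of M values and median of ratios scaling moved the median log2 fold change of all genes to 0.01 and -0.01, against -0.15, with 2261 and 2231 genes higher and 2142 and 2180 lower, and called the same number of members.

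Relative to the mitochondrial mRNA level, 4 genes were lower with the centre at the median (mt:CoII, mt:CoIII, mt:ND5 and mt:lrRNA) and 2 with the centre at the summed CPM, against 1. With the centre at the median mt:CoI, mt:Cyt-b, mt:ND1 and mt:ND4 stood at -0.143, -0.031, -0.271 and -0.237, none called, where the mean centre gave positive values. Leaving out each library gave 0 to 1 higher and 1 to 1 lower. The difference in share of CPM was 0.272 to 0.392 percentage points over those fits. Same-numbered libraries did not deviate together (correlations of -0.0284, 0.0423 and -0.0107 for numbers 1, 2 and 3). With so few libraries this cannot show whether same-numbered ones were prepared together. With the replicate number as a block 1855 genes were higher and 2573 lower, and 6 members were higher and 0 lower. Relative to the mRNA level the block gave 0 higher and 1 lower. The planned edgeR and DESeq2 fits were not run, because the deposited values are logs, and limma voom and the settings of the nuclear lists were added after seeing the data. The 9 untested members rest on 123 reads per group or fewer, and the reason for their low counts was not tested.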

Other observations

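Genes of mitochondrial mass, import and shape were higher in adult in 9 of 11 tested cases and lower in 1 (limma), with a median log2 fold change of 0.87, beside 27.2% higher and 37.9% lower of all tested genes. porin, the gene of the outer membrane channel, was at 1590 ± 35.3 CPM in adult and 1285 ± 92.2 CPM in development, and the adenine nucleotide carrier gene sesB was at 2414 ± 201.8 CPM in adult and 1056 ± 24.6 CPM in development (SD, n = 3 each). The chaperone gene Hsp60 and the fusion gene Marf, which encodes the fly mitofusin, rose by log2 fold changes of 1.82 ± 0.175 and 1.82 ± 0.118 (SE), with Hsp60 at 624.7 CPM in development replicate 1 and 342.2 and 362.1 CPM in development replicates 2 and 3, and Cyt-c-p, a cytochrome c gene, by 1.53 ± 0.107. Tim23, an inner membrane translocase gene, fell by 0.54 ± 0.12 on the log2 scale. Drp1, the fission gene, was at 333.5 ± 28.2 CPM in adult and 355.2 ± 17.4 CPM in development (limma, adjusted p = 0.43).

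Of 7 tested regulators linked to mitochondrial biogenesis and quality control 2 were higher and 2 lower in adult (limma), beside 27.2% and 37.9% of all tested genes. Leaving out each library in turn gave 1 to 2 higher and 0 to 2 lower, with 0 lower without development replicate 2, and the other scalings gave 3 higher and 1 lower. Pink1, a mitochondrial quality control kinase gene, was at 80.7 ± 18.9 CPM in adult and 28.2 ± 9.39 CPM in development, and Ets97D was at 34.5 ± 8.09 CPM in adult and 21.8 ± 2.69 CPM in development. srl, the fly relative of PGC-1 coactivators, was at 5.48 ± 4.29 CPM in adult and 11.6 ± 2.83 CPM in development (limma, adjusted p = 0.0302), a call lost without adult replicate 3 and without development replicate 2 or 3 (limma, adjusted p = 0.115, 0.098 and 0.0615). Its groups overlapped. Myc was at 14.8 ± 2.52 CPM in adult and 25.0 ± 4.54 CPM in development. ewg and ERR did not pass, with log2 fold changes of 0.00 and -0.08 (limma, adjusted p = 0.984 and 0.628).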
